A study of Sus scrofa with 22 samples.

Results

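FOS and JUN, the founding members of the immediate-early gene class, were followed in pigs from late gestation to 188 days of age. They were taken as every probe set that the array annotation assigns to the single symbol FOS or JUN. That gave 1 probe set for FOS and 1 for JUN, 2 of the 6765 genes with a singly named probe set, and 0 probe sets that shared either symbol with another gene. The samples were 22 hybridisations to an Affymetrix porcine expression array, 1 per animal as labelled. They came from 6 fetuses at 94 dpc (days post conception), 6 piglets at 1 dpn (days post natum), 6 piglets at 28 dpn and 4 pigs at 188 dpn. All animals were progeny of German Landrace gilts fed an adequate protein (AP) diet in gestation, so no group differed from another in maternal diet. Each stage drew on 3 gilts and no label ties an animal to its gilt. The p-values below treat animals as independent, which makes them too small where litter mates are alike.

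FOS and JUN encode basic leucine zipper proteins that pair into the dimer known as AP-1, which binds DNA at short palindromic sites and switches genes of growth, matrix turnover and stress on or off. Their transcripts are made within minutes of a stimulus, without new protein synthesis, after mitogen-activated kinases phosphorylate factors such as ELK1 and JUN itself, and FOS mRNA in particular is degraded quickly. In skeletal muscle both are known to respond to contraction, stretch and injury, and in many tissues to handling and the time between death and freezing.

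The tissue label was checked before any result was read. Every sample label names liver, whereas the title of the series names muscle. Of the 30 brightest genes on the arrays, 8 belonged to a skeletal muscle list and 0 to a liver list, and the brightest was the myosin light chain MYL1 at a mean signal of 68608. Liver transcripts were not absent. The 19 liver markers summed to 8101 to 63153 at 94 dpc, where APOA1 alone gave 7056 to 12788, and to 2914 to 16704 at the later stages, whereas the 20 skeletal muscle markers summed to 422869 or more on every array. Of these 19 liver markers 4 had a mean log2 signal below background over the arrays, APOB, AFP, CYP3A29 and TAT, and the rest lay above it. FOS and JUN are therefore described as measured in samples with bright muscle transcripts. The 1 dpn arrays stood apart in RNA quality. The ratio of the 5′ to the 3′ GAPDH control signal was 0.140 to 0.332 in replicates 2 to 5 of 1 dpn, against 1.14 and 1.15 in replicates 1 and 6 and 0.731 to 1.26 on the 16 arrays of the other stages.

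FOS was much brighter at 188 dpn than at any earlier stage, with wide spread at every stage. The lowest, median and highest signals were 426, 990 and 2245 at 94 dpc, 504, 814 and 2660 at 1 dpn, and 309, 549 and 2167 at 28 dpn. At 188 dpn the 4 animals gave 2621, 1936, 10377 and 6424. All 4 animals of 188 dpn thus exceeded the median of each other stage, but the stages overlapped: a single animal in each of the younger groups, replicate 4 of 94 dpc, replicate 2 of 1 dpn and replicate 3 of 28 dpn, exceeded the lowest animal of 188 dpn. Mean signals were 1130 ± 724 at 94 dpc, 1108 ± 782 at 1 dpn, 777 ± 688 at 28 dpn and 5339 ± 3895 at 188 dpn (SD, n = 6, 6, 6 and 4).

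JUN was also brightest at 188 dpn and dimmest at 28 dpn, with less spread than FOS at 3 of the 4 stages. Its lowest, median and highest signals were 2274, 3101 and 4236 at 94 dpc, 1234, 4714 and 8096 at 1 dpn, and 1822, 2370 and 3978 at 28 dpn. At 188 dpn the 4 animals gave 7033, 7855, 10007 and 11652. Every animal of 188 dpn exceeded every animal of 28 dpn and of 94 dpc, whereas replicate 2 of 1 dpn lay within the range of 188 dpn. Mean signals were 3140 ± 810 at 94 dpc, 4841 ± 2335 at 1 dpn, 2646 ± 844 at 28 dpn and 9137 ± 2094 at 188 dpn (SD, n = 6, 6, 6 and 4). Both probe sets were above background, a signal of 69.7, on 22 of 22 arrays.

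**Figure D1:**
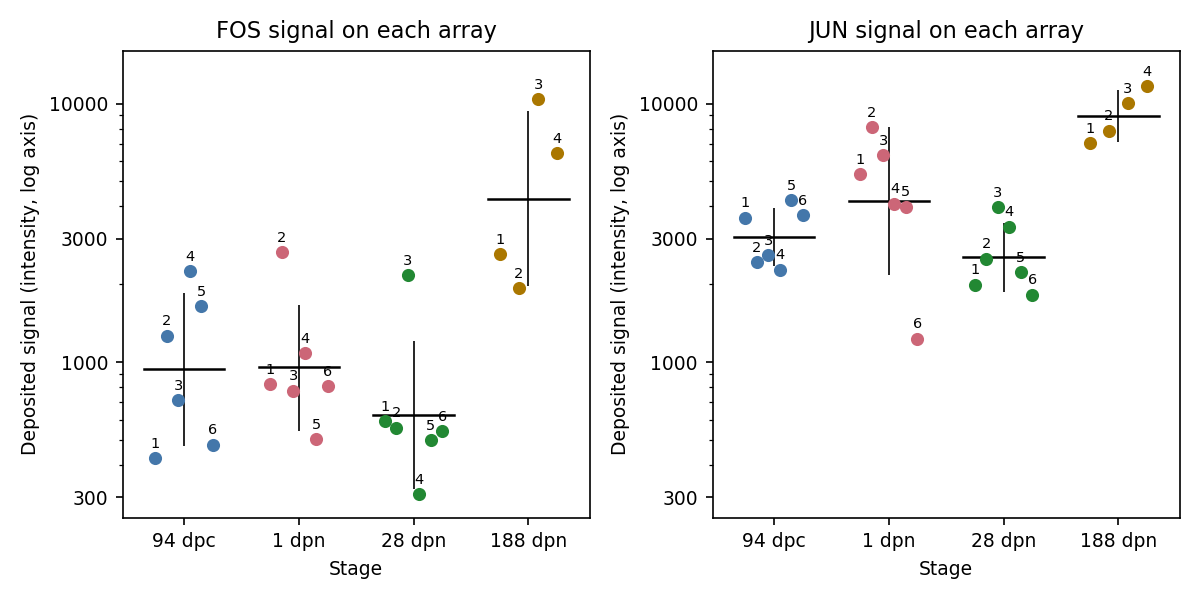
Deposited signal of FOS (left) and JUN (right) on each of the 22 arrays, on a log axis, by stage. Points are animals with their replicate numbers, horizontal lines are means and vertical lines are ± 1 SD, both taken on the log2(signal + 16) scale. FOS at 188 dpn spans 1936 to 10377 and overlaps 1 array of each younger stage, and JUN at 188 dpn spans 7033 to 11652 and overlaps 1 array of 1 dpn.

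Changes between stages were fitted with limma on log2(signal + 16) over all probe sets, with Benjamini-Hochberg adjustment over 23999 probe sets and a call at an adjusted p under 0.05. Both genes differed over the 4 stages (limma F test, adjusted p = 0.00196 for FOS and 0.00159 for JUN), as did 51.4% of all probe sets. Both FOS and JUN were called higher at 188 dpn than at each of the 3 younger stages, a pattern that 2.63% of probe sets showed. Neither was called different between any pair of the younger stages. Of all probe sets, 0.846% combined these patterns. In bulk tissue, more cells that express a gene and more RNA per cell cannot be told apart.

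For FOS the largest difference was that between 188 dpn and 28 dpn. The change was log2 2.74 (SE 0.56, 95% interval 1.58 to 3.91), 6.70-fold, with a limma adjusted p of 0.00249. The animal of 188 dpn was higher in 23 of 24 pairings with a 28 dpn animal, and 3 of the 4 exceeded all of 28 dpn. Against 94 dpc the change was log2 2.17 (95% interval 1.01 to 3.33), 4.50-fold, with an adjusted p of 0.00376, and 188 dpn was higher in 23 of 24 pairings. Against 1 dpn it was log2 2.15 (95% interval 0.99 to 3.31), 4.44-fold, with an adjusted p of 0.0051, and 188 dpn was higher in 22 of 24 pairings. These 3 comparisons share the 188 dpn arrays and are not independent of one another. With the GAPDH 5′/3′ ratio of each array as a covariate, the difference between 188 dpn and 1 dpn was log2 2.08 and no longer called (adjusted p = 0.0551).

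JUN rose by log2 1.81 at 188 dpn relative to 28 dpn (SE 0.37, 95% interval 1.05 to 2.57), 3.51-fold, with a limma adjusted p of 0.00241 and no overlap between the groups. Only 5.21% of probe sets were higher without overlap in this comparison, and 3.65% were called higher. Relative to 94 dpc, JUN was 2.92-fold higher at 188 dpn (log2 1.55, 95% interval 0.78 to 2.31, adjusted p = 0.00188), again without overlap, as were 13.8% of probe sets, and 13.6% were called higher. Relative to 1 dpn it was 2.13-fold higher (log2 1.09, 95% interval 0.33 to 1.85, adjusted p = 0.0282), with the 188 dpn animal higher in 22 of 24 pairings, in a comparison where 14.2% of probe sets were called higher. That call against 1 dpn was the least firm of those for JUN. It was lost without replicate 3 or replicate 4 of 188 dpn (adjusted p = 0.0696 and 0.0866), and when only the 2 stages entered the fit (adjusted p = 0.11). Set against only the 1 dpn arrays with even 5′ signal JUN was log2 1.80 higher at 188 dpn, and against only those with low 5′ signal log2 0.74 higher and no longer called.

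Among the 3 younger stages neither gene passed the test. FOS differed by log2 0.02 between 1 dpn and 94 dpc (95% interval -1.02 to 1.06, adjusted p = 0.983), by -0.59 between 28 dpn and 1 dpn (-1.63 to 0.45, adjusted p = 0.444) and by -0.57 between 28 dpn and 94 dpc (-1.61 to 0.47, adjusted p = 0.418). Each of these intervals for FOS includes a 2-fold decrease, so the arrays leave room for sizeable differences. In the same limma fit, JUN differed by log2 0.46 between 1 dpn and 94 dpc (-0.22 to 1.14, adjusted p = 0.314), by -0.72 between 28 dpn and 1 dpn (-1.40 to -0.04, adjusted p = 0.125) and by -0.26 between 28 dpn and 94 dpc (-0.95 to 0.42, adjusted p = 0.587). Of all probe sets 32.7, 22.3 and 30.3% were called in these comparisons, in the same order. By mean log2 signal the stages thus ordered as 188 dpn, 1 dpn, 94 dpc and 28 dpn for both genes, and of the differences between neighbours in this order only that between 188 dpn and 1 dpn passed the test.

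Around birth the JUN values turned on a single piglet and on the arrays with low 5′ signal. Replicate 6 of 1 dpn gave 1234, the lowest JUN signal of the 22 arrays, against 3986 to 8096 on the other arrays of that stage. Without it JUN was called higher at 1 dpn than at 94 dpc (log2 0.81, limma adjusted p = 0.0138) and lower at 28 dpn than at 1 dpn (log2 -1.07, adjusted p = 0.00288). The 4 arrays of 1 dpn with low 5′ signal gave 3986 to 8096, and the pair with even 5′ signal gave 1234 and 5329. Only the low arrays against 94 dpc gave log2 0.81 (adjusted p = 0.0201), and only the even arrays gave -0.25 (adjusted p = 0.736). At 28 dpn relative to the even arrays alone the JUN difference was log2 -0.014 (adjusted p = 0.99). Beyond these values the part of RNA quality in the JUN signals of 1 dpn was not tested. FOS gave 504 to 2660 on the 4 arrays with low 5′ signal and 807 and 821 on the even pair.

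**Figure D2:**
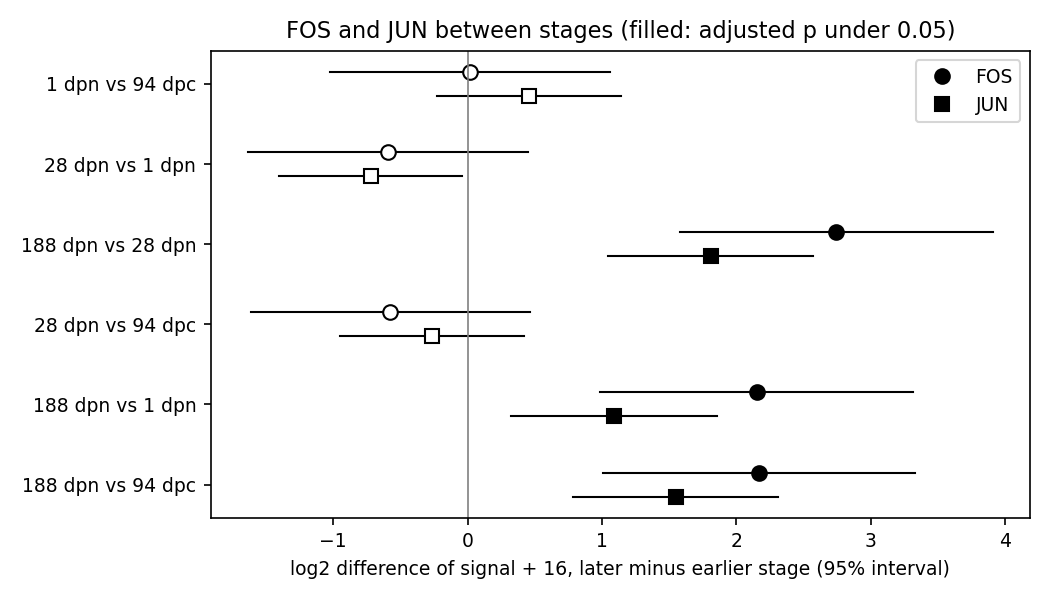
Differences of FOS (circles) and JUN (squares) in log2(signal + 16) between each pair of stages, later minus earlier, with 95% intervals from limma. Filled symbols passed an adjusted p under 0.05, which they did in the 3 comparisons with 188 dpn and in none of those among the younger stages.

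The differences of FOS were larger than those of JUN in each comparison with 188 dpn, but not by more than the animals varied. An exact two-sided permutation test of the FOS change minus the JUN change, over 6 comparisons, gave 0.93 on the log2 scale for 188 dpn against 28 dpn (p = 0.105, adjusted p = 0.371). For 188 dpn against 1 dpn the excess of FOS was 1.06 (exact p = 0.124, adjusted p = 0.371), and against 94 dpc it was 0.62 (exact p = 0.4, adjusted p = 0.727). This test was chosen after the data were seen.

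FOS varied more between animals of a stage than most transcripts of its brightness. Its pooled SD within stages was 0.94 on the log2 scale, larger than that of 98.9% of the 1839 probe sets of similar mean brightness, whose median was 0.32. For JUN the SD was 0.60, larger than that of 92.7% of 603 probe sets of similar brightness. By stage the SD of FOS was 0.96 at 94 dpc, 0.80 at 1 dpn, 0.92 at 28 dpn and 1.12 at 188 dpn, and that of JUN was 0.37, 0.94, 0.44 and 0.33 in the same order. The highest of the 22 arrays exceeded the lowest 33.6-fold for FOS and 9.44-fold for JUN.

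FOS and JUN were tested for moving together from animal to animal, in a family of 5 relations. Over the 22 animals Pearson's r of the log2 values was 0.66 (permutation p = 0.0007, adjusted p = 0.0035) and Spearman's rho was 0.59 (permutation p = 0.0049, adjusted p = 0.0247). Without the 2 animals farthest from the median of FOS, replicates 3 and 4 of 188 dpn, r was 0.46. With the stage means removed r was 0.27 (permutation p = 0.213, adjusted p = 0.399) and rho was 0.20. Without the 2 animals farthest from the median of these centred FOS values, which were not the same 2, r was -0.01. Within single stages of 6 animals r was -0.40 at 94 dpc (exact p = 0.399), 0.43 at 1 dpn (exact p = 0.314) and 0.47 at 28 dpn (exact p = 0.374), each with an adjusted p of 0.399, and 188 dpn held too few animals for a value. The relation over all animals therefore rested largely on differences between stages and was not detected within stages. It was not computed over the younger animals alone, so the part of 188 dpn in it was not tested.

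**Figure D3:**
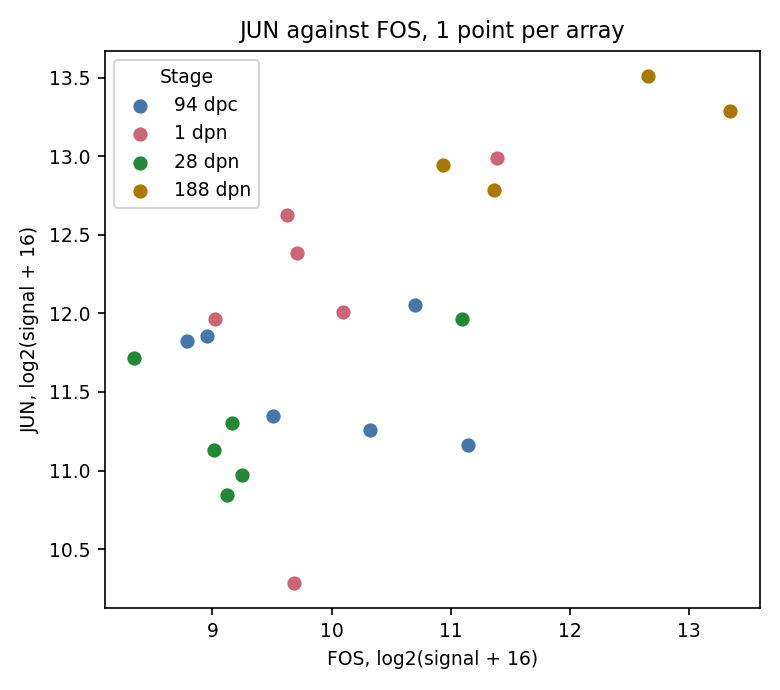
JUN against FOS on the 22 arrays, both as log2(signal + 16), coloured by stage. The 4 arrays of 188 dpn lie at the upper right with 1 array of 1 dpn, and within the other stages no common slope is visible (r from -0.40 to 0.47).

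Of the 6 genes most like FOS within stages, 3 were other immediate-early genes on the lists used here, DUSP6, CEBPD and EGR1. Among 4945 genes brighter than the median probe set, with stage means removed over the 22 samples, r with FOS was highest for DUSP6 (0.75), a phosphatase that switches off ERK kinases. Next came the histone demethylase KDM4A (0.70), the transcription factors CEBPD (0.67) and EGR1 (0.67), the vasodilator peptide gene ADM (0.66) and the mitochondrial ferredoxin FDX1 (0.65). JUN stood at rank 517 in this order. Leaving out any single sample left r between 0.57 and 0.78 for CEBPD and between 0.59 and 0.80 for EGR1. These values describe arrays that share 1 scaling and carry no p.

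The animals behind that likeness can be named. In replicate 3 of 28 dpn, FOS was 2167 against 309 to 590 in its 5 stage mates, and EGR1 (914), CEBPD (6536) and DUSP6 (691) were also the highest of their stage. At 94 dpc, replicate 4 had the highest FOS (2245), EGR1 (2689) and DUSP6 (1843) of its stage, and at 188 dpn replicate 3 had the highest FOS (10377), EGR1 (1188), CEBPD (6787) and DUSP6 (471). At 1 dpn the pattern was weaker. Replicate 2 had the highest FOS (2660) and DUSP6 (636) but the lowest EGR1 (704) of the stage, and CEBPD was highest in replicate 1 (12498). JUN peaked in the same animal as FOS at 1 dpn and 28 dpn but not at 94 dpc or 188 dpn.

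Of the 35 other immediate-early genes brighter than the median probe set, 28 had a positive r with FOS within stages and 5 had an r over 0.5, namely DUSP6, CEBPD, EGR1, the chemokine CXCL2 and the phosphatase DUSP1. Their median r was 0.21, against -0.02 over all ranked genes, of which 1.01% had an r over 0.5. With JUN, 23 of the 35 had a positive r and 3 had an r over 0.5, the NF-kappaB inhibitor NFKBIA, the mRNA decay factor ZFP36 and DUSP1. The median was 0.14, against -0.03 over all ranked genes, of which 4.55% had an r over 0.5.

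JUN had other nearest neighbours within stages. The highest r were those of the triglyceride lipase PNPLA2 (0.91), the selenium-binding protein SELENBP1 (0.85), the phosphatase CTDSP2 (0.83), the ubiquitin ligase CHFR (0.82), the carbohydrate kinase FGGY (0.80) and KLHDC3 (0.80), with FOS at rank 897. Replicate 6 of 1 dpn carried part of these values. Without it r was 0.79 for PNPLA2, 0.84 for SELENBP1, 0.64 for CTDSP2, 0.79 for CHFR, 0.44 for FGGY and 0.65 for KLHDC3. In that animal PNPLA2 gave 4654 and JUN 1234, against 12430 to 17728 for PNPLA2 and 3986 to 8096 for JUN on the other 5 arrays of 1 dpn. Of 15 heat shock and stress genes, 0 had a positive r with JUN within stages and their median r was -0.37. These list values were not recomputed without replicate 6 of 1 dpn.

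**Figure D4:**
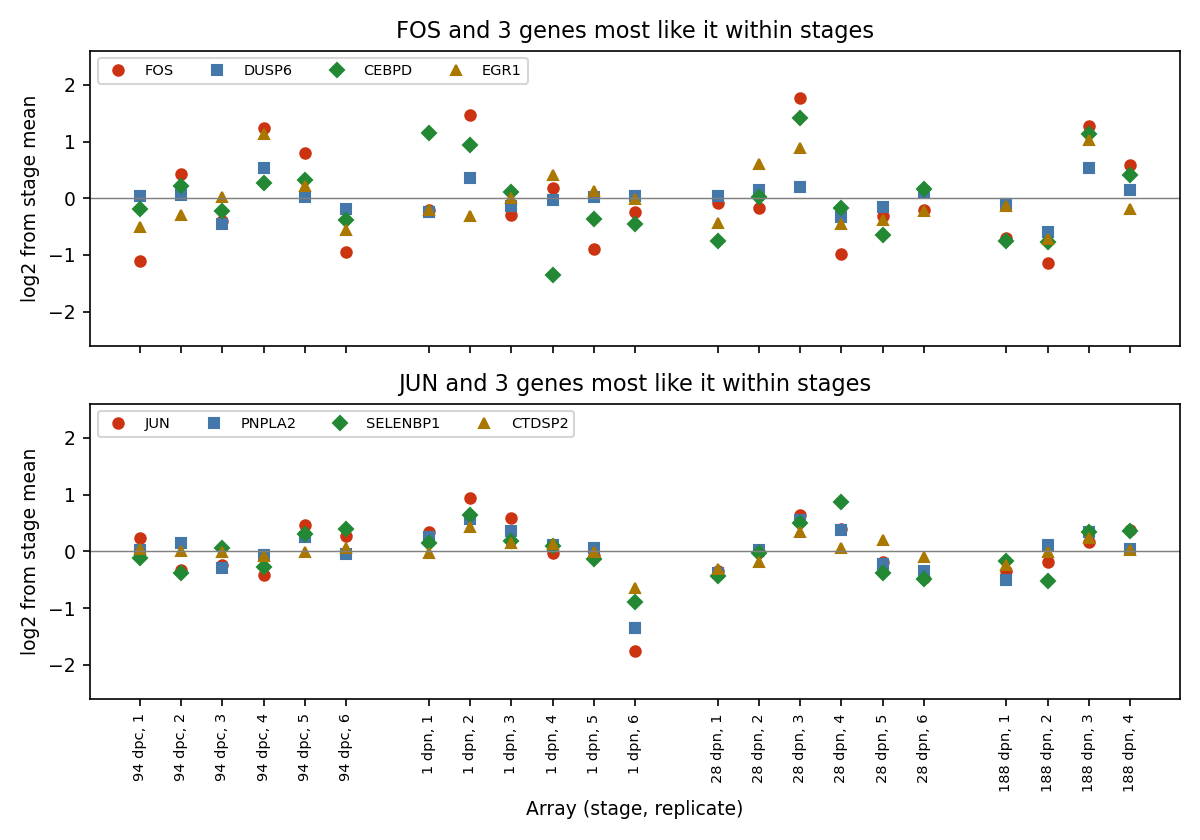
Signal on each array relative to its stage mean, on the log2(signal + 16) scale, for FOS with DUSP6, CEBPD and EGR1 (top) and for JUN with PNPLA2, SELENBP1 and CTDSP2 (bottom). The upper genes share high values in replicate 3 of 28 dpn and replicate 3 of 188 dpn, and FOS, DUSP6 and EGR1 also in replicate 4 of 94 dpc. The lower genes share a low value in replicate 6 of 1 dpn.

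Over the 22 samples without removal of stage means, r with FOS was highest for the farnesyltransferase subunit FNTB (0.76), the acetyltransferase NAA50 (0.76), the RNA-binding protein NANOS1 (0.73), LOC100739098 (0.72), GSE1 (0.70) and AAMP (0.70), and JUN stood at rank 10. For JUN it was highest for ARHGAP35 (0.78), the deubiquitinase USP28 (0.75), LOC100739098 (0.75), the exchange factor RAPGEF1 (0.74), SCCPDH (0.73) and the transcription factor HBP1 (0.73), with FOS at rank 25. LOC100739098 stood among the first 6 genes for both FOS and JUN. These values mix differences between stages with those between animals.

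Of the other 48 measured immediate-early genes, 5 rose with FOS and JUN at 188 dpn relative to 28 dpn and 8 fell. Of 21 other immediate-early transcription factors with a named probe set, 4 rose and 4 fell at 188 dpn relative to 28 dpn, beside 3.65% of probe sets called higher and 8.2% called lower. The median change of these genes was log2 -0.03, against -0.10 over all named genes. The genes that rose were the orphan nuclear receptor NR4A2 (log2 1.37), IER5 (1.38), the zinc-finger factor KLF10 (1.09) and CEBPB (1.11), and those that fell were IER3 (-1.36), the repressors HES1 (-0.66), ID1 (-1.17) and ID3 (-1.31). Of 27 immediate-early regulators and effectors 1 rose, the growth factor HBEGF (1.48), and 4 fell, the ERK phosphatase DUSP6 (-0.88), the small GTPase RHOB (-0.85), the kinase SGK1 (-0.97) and the prostaglandin synthase PTGS2, whose mean signal lay below background. Without replicate 2 of 188 dpn the calls of IER3 (log2 -0.81), HES1 (-0.64), ID1 (-1.11), RHOB (-0.67), DUSP6 (-0.68), SGK1 (-0.49), IER5 (1.22), KLF10 (0.99), CEBPB (1.02) and HBEGF (1.35) were lost, which left NR4A2, ID3 and PTGS2. Over 33 alternatives the call of SGK1 was lost in 22, that of HES1 in 17, those of IER3 and ID1 in 6 each and that of KLF10 in 5, including without replicate 3 of 188 dpn (log2 0.77). NR4A2 lost its call without that replicate too (log2 1.25), and ID3 lost its call in 0 of 33. EGR1, the immediate-early factor most often named together with FOS, gave 639 at 188 dpn against 527 at 28 dpn (log2 0.23, limma adjusted p = 0.755).

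The split between rising and falling members depended on the scaling of the arrays, whereas the rise of FOS and JUN did not. Both lists together had 5 genes called higher and 8 lower on the deposited scale, 5 and 6 once the arrays were quantile normalized, and 8 and 3 when array medians were aligned. Of all probe sets 4.77 and 7.18% were called higher in this comparison under these scalings, and 6.01 and 4.77% lower. Aligning the medians added log2 0.20 to every difference between 188 dpn and 28 dpn, so that FOS changed by 2.95 and JUN by 2.01, and the quantile-normalized values gave 2.63 and 1.65. The count for both lists fell to 3 genes without replicate 2 of 188 dpn and to 8 without replicate 1 or replicate 2 of 28 dpn.

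**Figure D5:**
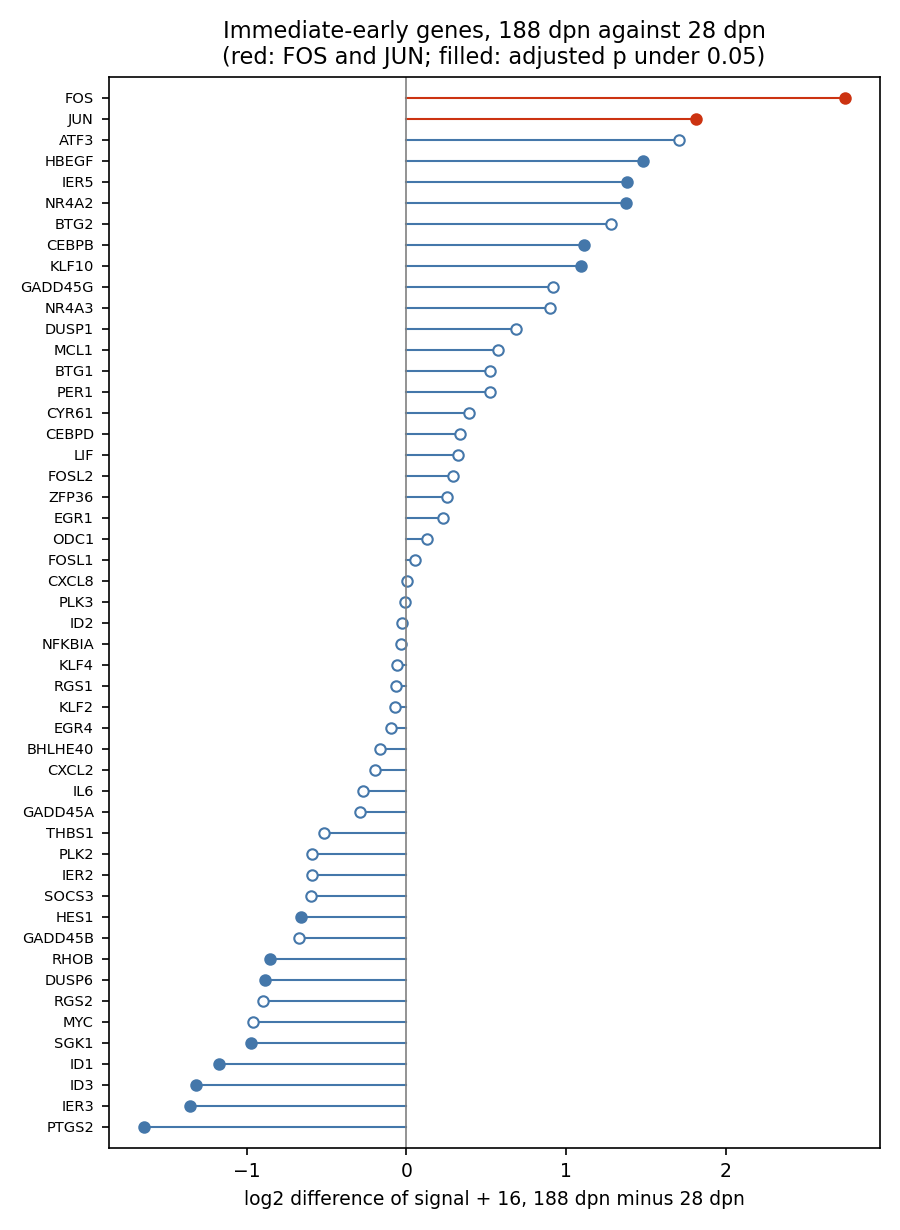
Differences in log2(signal + 16) between 188 dpn and 28 dpn for FOS, JUN (red) and the other 48 measured immediate-early genes (blue), sorted by size. Filled points passed a limma adjusted p under 0.05. FOS (2.74) and JUN (1.81) lie at the top, with 5 other genes called higher and 8 called lower.

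CEBPB and HBEGF were the members of these lists that, like FOS and JUN, were called higher at 188 dpn than at every other stage. They were 1 of 21 transcription factors and 1 of 27 regulators and effectors, beside 2.63% of all probe sets. CEBPB, a leucine zipper factor of the C/EBP family, averaged 1395 ± 233 at 94 dpc, 6788 ± 4278 at 1 dpn, 5641 ± 1548 at 28 dpn and 11995 ± 2272 at 188 dpn (SD, n = 6, 6, 6 and 4). It also rose at 1 dpn relative to 94 dpc (log2 2.07, limma adjusted p = 1.52e-05). Its calls against 28 dpn and against 1 dpn were each lost in 7 of 33 alternatives, among them leaving out replicate 2, 3 or 4 of 188 dpn (log2 1.02, 1.08 and 1.09 against 28 dpn, and 0.93, 0.99 and 1.00 against 1 dpn), replicate 1, 4 or 5 of 28 dpn (1.05, 1.06 and 1.02) and replicate 4 of 1 dpn (0.77). Against 1 dpn the smallest values were those with the GAPDH covariate (log2 0.71, adjusted p = 0.281) and with only the even 1 dpn arrays (log2 0.62, adjusted p = 0.297). HBEGF, a ligand of the EGF receptor, averaged 171 ± 24.5 at 94 dpc, 220 ± 163 at 1 dpn, 356 ± 160 at 28 dpn and 995 ± 346 at 188 dpn. At 188 dpn replicate 3, the animal with the highest FOS (10377), had the lowest HBEGF of the stage (494). The HBEGF call against 28 dpn was lost without replicate 1 (log2 1.36) or replicate 2 (1.35) of 188 dpn, and that against 1 dpn with only the even 1 dpn arrays (log2 1.14, against 2.27 with all). The antiproliferative gene BTG2 rose at 188 dpn relative to 94 dpc (log2 2.36, adjusted p = 0.00174) and to 1 dpn (log2 2.05, adjusted p = 0.00712), the call against 1 dpn being lost with the GAPDH covariate (log2 0.92) and with only the even 1 dpn arrays (log2 1.14).

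Other named immediate-early genes fell at 188 dpn relative to 94 dpc, where FOS and JUN rose. RGS2, which restrains G protein signalling, was log2 -3.01 at 188 dpn relative to 94 dpc (limma adjusted p = 1.76e-07), the kinase PLK2 -2.24 (adjusted p = 8.17e-06) and the matrix protein THBS1 -2.06 (adjusted p = 0.0128). FOSL2, the FOS relative that also pairs with JUN, averaged 213 ± 32.2 at 94 dpc, 379 ± 119 at 1 dpn, 74.3 ± 38.0 at 28 dpn and 91.5 ± 42.8 at 188 dpn. It was thus near background at the stage where FOS was brightest, and it fell at 28 dpn relative to 1 dpn (log2 -2.23, adjusted p = 1.88e-05). FOSL1 averaged 60.8 to 99.7 over the stages, near background. FOSB, JUNB and JUND were not analysed here.

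In the whole span from 94 dpc to 188 dpn, 6 of the 21 transcription factors and 7 of the 27 regulators and effectors rose with FOS and JUN, and 8 of each list fell, beside 13.6% of probe sets called higher and 22.5% called lower. At 188 dpn relative to 1 dpn, 3 and 4 rose and 5 of each fell, beside 14.2 and 15.7%. At 1 dpn relative to 94 dpc 3 of each list rose and 3 and 6 fell, beside 10.9 and 21.7%. With array medians aligned that balance turned round, to 10 genes of both lists higher and 7 lower, beside 19.2 and 14.1%. At 28 dpn relative to 1 dpn 1 and 3 rose and 4 of each fell, beside 13.9 and 8.39%, and with medians aligned 2 of both lists rose and 10 fell, beside 9.17 and 13.9%. At 28 dpn relative to 94 dpc 2 and 4 rose and 7 and 8 fell, beside 13.1 and 17.2%.

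The kinases upstream of FOS and JUN gave different counts in the 3 comparisons in which FOS and JUN rose. Of 19 measured kinases and factors known to act on either gene or protein, 1 rose (MAP2K4, an activator of JNK kinases) and 2 fell (MAPK12 and RPS6KA1) at 188 dpn relative to 28 dpn, shares near the 3.65% of probe sets called higher and 8.2% called lower. With array medians aligned 4 rose and 1 fell, beside 7.18 and 4.77% of probe sets. Over 33 alternatives the calls of MAP2K4 and MAPK12 were lost in 7 and 10. MAP2K4 was the 1 gene of this list called higher at 188 dpn than at each other stage, beside 2.63% of probe sets. At 188 dpn relative to 1 dpn 7 rose and 0 fell (limma, and 9 and 0 at an unadjusted p under 0.05), beside 14.2 and 15.7%. Relative to 94 dpc 8 rose and 3 fell, beside 13.6 and 22.5%, or 12 and 1 with medians aligned, beside 21.3 and 16.6%. CAMK2D, a calcium-dependent kinase gene, was log2 1.79 higher at 188 dpn than at 1 dpn (adjusted p = 4.11e-07) and log2 2.01 higher than at 94 dpc (adjusted p = 3.58e-08). At 28 dpn relative to 1 dpn, where neither FOS nor JUN was called, 6 rose and 0 fell (limma, and 7 and 0 at an unadjusted p under 0.05), beside 13.9 and 8.39%, among them the p38 kinase gene MAPK12 (log2 0.94, limma adjusted p = 9.1e-05), its activator MAP2K6 (log2 1.41, adjusted p = 3.59e-06) and the calcium-dependent kinases CAMK2D (log2 1.27, adjusted p = 1.78e-05) and CAMK2G (log2 1.06, adjusted p = 0.000938). MAP2K2, an ERK activator, rose at 1 dpn relative to 94 dpc (log2 1.14, adjusted p = 2.19e-06), and the p38 kinase gene MAPK13 averaged 50.0 to 82.0 at the later stages, against 160 at 94 dpc. Skeletal muscle markers moved with the kinases. They summed to 1033296 to 1277333 at 28 dpn, against 575031 to 760899 at 1 dpn, with 13 of 20 called higher and 0 lower, and at 188 dpn 8 of 20 were called higher than at 1 dpn and 16 of 20 higher than at 94 dpc. The part of muscle content in the kinase values was not tested.

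The list of dimer partners was drawn widely and also holds factors of the CREB family, whose pairing with FOS or JUN was not tested. Of its 6 measured genes, 1 rose at 188 dpn relative to 28 dpn and 0 fell, beside 3.65 and 8.2% of probe sets. The gene that rose was CREM, a cyclic-AMP responsive factor of that family. CREM gave 1274 to 3191 at 188 dpn and 604 to 1339 at 28 dpn (log2 1.30, SE 0.25, limma adjusted p = 0.00148). It fell by log2 1.83 at 28 dpn relative to 1 dpn (adjusted p = 4.73e-06). ATF4, a stress-induced partner of both, rose at 28 dpn relative to 1 dpn (log2 2.04, adjusted p = 5.71e-05) and averaged 62705 at 188 dpn, against 37562 at 28 dpn (log2 0.78, adjusted p = 0.155). DDIT3 rose at 1 dpn relative to 94 dpc (log2 1.25, adjusted p = 0.00636), a call lost with the GAPDH covariate (log2 1.17, adjusted p = 0.0795).

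Among genes known as targets of the FOS and JUN dimer, more were called lower than higher at 188 dpn relative to each younger stage, on the deposited scale and under both other scalings. Of 24 measured targets, 0 rose and 10 fell relative to 28 dpn (limma, and 2 and 11 at an unadjusted p under 0.05), beside 3.65 and 8.2% of probe sets, with a median change of log2 -0.63 against -0.10 over all named genes. With array medians aligned 1 rose and 7 fell, beside 7.18 and 4.77% of probe sets, and without replicate 3 of 188 dpn 6 were called. Among those that fell were the matrix metalloproteinases MMP2 (log2 -1.30, adjusted p = 0.000596) and MMP14 (log2 -1.55, adjusted p = 0.0135), their inhibitor TIMP1 (log2 -1.09, adjusted p = 0.00347), the matrix protein FN1 (log2 -1.21, adjusted p = 0.00379) and the quinone reductase NQO1 (log2 -1.39, adjusted p = 0.0145). MMP14 was no longer called without replicate 3 of 188 dpn (log2 -0.94), nor NQO1 without replicate 4 (log2 -1.21). Relative to 1 dpn 3 targets rose and 7 fell, beside 14.2 and 15.7%, and relative to 94 dpc 3 rose and 12 fell, beside 13.6 and 22.5%. The vascular growth factor gene VEGFA rose in both, by log2 1.56 (adjusted p = 1.48e-05) and log2 1.74 (adjusted p = 1.85e-06). NQO1 (log2 1.55, adjusted p = 0.00167) and GCLC (log2 1.05, adjusted p = 0.00748), which serves glutathione synthesis, rose relative to 94 dpc. The metallothionein gene MT1A (log2 2.10) and the integrin gene ITGB1 (log2 0.49) rose relative to 1 dpn, calls lost in 8 of 32 and 10 of 33 alternatives. MT1A lost its call without replicate 2, 3 or 5 of 1 dpn or replicate 1 or 4 of 188 dpn (log2 1.51 to 2.09), and ITGB1 without replicate 2, 3 or 4 of 1 dpn or replicate 1 or 2 of 188 dpn (log2 0.40 to 0.47). Both calls were also lost with the GAPDH covariate (log2 0.88 for MT1A and 0.58 for ITGB1). The same held with only the even 1 dpn arrays (log2 0.96 and 0.48). The secreted phosphoprotein SPP1 gave no call at 188 dpn relative to 28 dpn (log2 0.55, limma adjusted p = 0.676) or to 1 dpn (log2 -0.27, adjusted p = 0.807). It had fallen between 94 dpc and 1 dpn (log2 -2.99, adjusted p = 0.000413). Several of these targets are products of fibroblasts and vessels, and the marker sums of those cells moved with them. Endothelial markers summed to 3851 to 5539 at 188 dpn, against 9182 to 13478 at 28 dpn, with 5 of 10 genes called lower. Smooth muscle and pericyte markers summed to 7775 to 12306 at 188 dpn, against 18725 to 26612 at 28 dpn, with 3 of 5 called lower. Fibroblast markers summed to 10545 to 17345 at 188 dpn, against 14300 to 27468 at 28 dpn, with 3 of 7 called lower. The part of these cells in the values of the targets was not tested.

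Of the 6 lists, heat shock genes had the most members that rose with FOS and JUN at 188 dpn relative to 28 dpn. Of 15 measured, 7 rose and 0 fell (limma, and 8 and 0 at an unadjusted p under 0.05), beside 3.65 and 8.2% of probe sets, with a median change of log2 0.59. On quantile-normalized values 6 rose and 0 fell, beside 4.77 and 6.01%. With array medians aligned 8 rose and 0 fell, beside 7.18 and 4.77%. The inducible chaperone gene HSP70.2 gave 29513, 28571, 18193 and 31588 at 188 dpn, against 3778 to 6873 at 28 dpn (log2 2.41, SE 0.30, limma adjusted p = 2.69e-05). The small heat shock protein gene HSPB8 (log2 1.18, adjusted p = 0.00321) and the co-chaperone HSPH1 (log2 1.58, adjusted p = 0.01) also rose, as did BAG3, CRYAB, HSPB1 and DNAJB4, of which DNAJB4 lost its call in 21 of 33 alternatives, BAG3 in 7, HSPB1 in 2 and CRYAB in 0. HSP70.2, HSPB8, HSPH1 and DNAJB4, 4 of the 15, were called higher at 188 dpn than at each other stage, as FOS and JUN were, beside 2.63% of probe sets. Against 1 dpn HSP70.2 and HSPB8 lost that call with the GAPDH covariate (log2 0.59 and 0.52) and with only the even 1 dpn arrays (log2 0.75 and 0.46). The animal with the highest FOS, replicate 3 of 188 dpn, had the lowest HSP70.2 of the stage. At 1 dpn relative to 94 dpc 9 of the 15 heat shock genes rose and 0 fell, beside 10.9 and 21.7% of probe sets. On quantile-normalized values 7 rose and 2 fell, beside 14.3 and 15.8%.

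The other markers that could bear on FOS and JUN at 188 dpn gave these values. Of all probe sets, 3.65% were called higher and 8.2% lower at 188 dpn relative to 28 dpn. Leukocyte markers summed to 2102 to 7362 at 188 dpn, against 3523 to 13639 at 28 dpn, with 2 of 12 lower. Satellite cell and myoblast markers summed to 4891 to 8135, against 1735 to 3249, with MYF6 called higher and MYOD1 and NCAM1 lower. The median change of these 4 genes was log2 -0.80, so their higher sum does not describe the list as a whole. Pancreas markers summed to 12248 to 17965 at 188 dpn, against 6613 to 10617 at 28 dpn, with 0 of 8 called (limma, and 3 higher at an unadjusted p under 0.05), and insulin lay below background on all arrays. Liver markers summed to 2914 to 15043 at 188 dpn, against 3214 to 16704 at 28 dpn, with 1 of 19 called higher and 1 lower, near the shares of all probe sets. Adipocyte markers summed to 2156 to 4070 at 188 dpn, against 4404 to 9370 at 28 dpn, with FABP4 called lower of 3, and erythroid markers to 597 to 725, against 870 to 2598, with ALAS2 and AHSP called lower of 4. Skeletal muscle markers summed to 1007019 to 1030134 at 188 dpn, against 1033296 to 1277333 at 28 dpn. The part of cell composition in the FOS and JUN differences was not tested, and age cannot be told apart from how each group of animals was sampled.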

How the data were processed

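Per the labels' protocols, TRI Reagent RNA was DNase treated and column purified before biotin labelling of cRNA. The deposited values are linear intensity signals per probe set (1 to 111760), and the submitters' processing notes name GCOS 1.1.1. With 2% trimmed from each tail, array means were 500.1 to 500.2, so no further scaling was applied. The table holds 24123 probe sets, of which 124 controls were left out. Of the 23999 tested, 10069 carried 1 symbol, 198 several and 13732 none. Signals were analysed as log2(signal + 16), which understates the change of dim genes, with limma 3.58.1 (R 4.3.3, statmod 1.5.0), 1 mean per stage and Benjamini-Hochberg adjustment. Exact permutation tests used SciPy 1.17.1. Background was the 95th percentile of 23 negative control probe sets (69.7). The number of arrays limits precision.

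The members, gene lists and tests were chosen with earlier results of these data known. Lists used the probe set with the highest mean of each gene. Named genes were at most 6 per list with the largest range of stage means among those called in the F test, and the 6 most like FOS and JUN. Further genes were named where they made up a small count. Arrays within a stage correlated at 0.882 or more and none was a duplicate. On simulated data for 188 dpn against 28 dpn (23999 probe sets), 70.1% of changes of log2 2, 31.3% of log2 1 and 3.03% of log2 0.5 were called, with 2 false calls. The simulation changed 66 or 67 probe sets per size, and only at 188 dpn. Real comparisons had far more calls, so these shares do not carry over to them. The alternatives comprised quantile normalization, median centring, array weights, trended and robust variances, a pseudocount of 1, fits of 2 stages, bright probe sets, the GAPDH ratio, subsets of 1 dpn arrays, 2 arrays with liver or pancreas signal removed, and each sample left out.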

Additional observations from a re-analysis of the deposited data

Results flagged for a closer look

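Of 140 groups of samples examined, 35 genes at 4 stages, 10 held an animal far from the rest of its stage, and chance alone gives about 1 in 20. FOS at 28 dpn was one of them, with replicate 3 at 2166.7 and the others at 309.2 to 590.3. Without that animal FOS was log2 3.10 higher at 188 dpn than at 28 dpn, against 2.74 with it.

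Single high animals were also found for HES1 at 94 dpc (replicate 4, 1273.2, others 746.9 to 908.7), RGS2 at 94 dpc (replicate 4, 2730.4, others 1647.4 to 1859.1), ID1 at 1 dpn (replicate 6, 5175.6, others 1083.4 to 1865.9), ID3 at 188 dpn (replicate 4, 1612.4, others 1184.2 to 1214.3) and ATF4 at 188 dpn (replicate 2, 69233.3, others 60044.8 to 61477.3). Replicate 4 of 94 dpc, the animal with the highest FOS of its stage, thus appeared for HES1 and RGS2.

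Single low animals were found for CREM at 94 dpc (replicate 3, 2020.9, others 2351.2 to 2524.7), MMP2 at 94 dpc (replicate 2, 2414.9, others 3334.7 to 3974.7), PLK2 at 1 dpn (replicate 1, 44.8, others 98.2 to 148.0) and HSPE1 at 1 dpn (replicate 1, 15639.3, others 37561.8 to 59991.3).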

How the results depend on the processing

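FOS and JUN stayed called higher at 188 dpn than at 28 dpn and at 94 dpc under all 33 alternatives run for each. FOS spanned log2 2.32 to 3.12 against 28 dpn and 1.75 to 2.55 against 94 dpc, and JUN spanned 1.65 to 2.01 and 1.31 to 1.82. Against 1 dpn, FOS was lost only with the GAPDH covariate (2.08), and JUN was lost with array weights (0.91), with only the 2 stages fitted (1.09) and with only the low-5′ arrays of 1 dpn (0.74), against 1.80 with only the even-5′ arrays, with 0.74 to 1.28 over single samples left out. JUN at 28 dpn against 1 dpn became called with median centring (-0.92), array weights (-0.93) and the low-5′ arrays (-1.07), against -0.014 with the even-5′ arrays, with -1.07 to -0.53 over single samples. At 1 dpn against 94 dpc, JUN became called with the low-5′ arrays (0.81) and turned round with the even-5′ arrays (-0.25), with 0.27 to 0.81 over single samples. The near-zero FOS difference there turned round with the even-5′ arrays (-0.21), without replicate 1 of 94 dpc and replicate 3 of 1 dpn, the arrays with most liver and pancreas signal (-0.15), and without single samples (-0.20, -0.06, -0.17, -0.27 and -0.02), with -0.27 to 0.27 over all of them. Causes were not tested.

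Genes called in both immediate-early lists at 188 dpn against 1 dpn numbered 17, and 11 both with only the 2 stages fitted and with the even-5′ arrays; at 188 dpn against 28 dpn they numbered 13, and 3 to 14 over single samples. In the other 4 lists 53 of 792 counts moved by over 1.5 times. The correlation of FOS with JUN was 0.62 after quantile normalization, 0.70 after centring and 0.46 without the 2 animals farthest in FOS. It was 0.59 to 0.72 over single samples, a set chosen after seeing the data. With stage means removed the values were 0.20, -0.0071 without the 2 animals farthest in FOS after that removal, and 0.13 to 0.36. Of 209 calls of other named genes, 61 were lost under at least 1 alternative and 0 reversed. All probe sets called fell to 3347 for 28 dpn against 1 dpn, from 5357, and to 4695 for 188 dpn against 1 dpn, from 7167, with only the 2 stages fitted.

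FOS and JUN have 1 probe set each, so averaging probe sets or using another one could not be run. No paired analysis was possible because the labels give no numbers shared between stages. With 4 to 6 arrays per stage, changes near log2 1 were mostly missed on simulated data, so a lack of a call between the younger stages does not show equal levels. Depth has no meaning for arrays; both genes were bright, so background did not limit them.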
